A study of Mus musculus with 6 samples.

Results

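Genes for voltage-gated calcium, sodium and potassium channels and for the other potassium channels were followed in adrenal glands of adult mice whose mothers had received an NMDA receptor antagonist. The members were the genes whose symbol begins with Cacn, Scn or Kcn, apart from the epithelial sodium channel genes (Scnn), Kcnk3, Kcnk9, Cacna1h and the noncoding Kcnq1ot1. Of 103 such genes with a probe set of their own, 96 reached a log2 value of 6 on at least 3 of the 6 arrays, and these were compared through the brightest probe set of each, among 14727 genes tested in all. By symbol, 4 of the 96 are not channel subunits: Scnm1 encodes a protein involved in RNA splicing, and Kcnmb4os1, Kcnmb4os2 and Kcnd3os are noncoding transcripts from the opposite strand of channel genes.

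All animals were female C57Bl/6J offspring whose adrenals were collected at 21 weeks of age. In the CGP group the mothers were given CGP 39551 by mouth, at 5 mg per kg, during pregnancy and lactation up to weaning, and the control group was labelled control only, with no vehicle named. Each group comprised a pool of RNA from 18 mice and 3 Affymetrix whole-transcript arrays. The labels do not say if a group's arrays shared 1 pool, so the p-values below measure only the spread between arrays, which may be technical. These were whole glands, in which fewer cells of a type and less RNA per cell cannot be told apart.

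The pore of a voltage-gated channel is formed by its α subunit, and auxiliary subunits set how much of it reaches the membrane and how it opens and closes. In chromaffin cells of the adrenal medulla, sodium and calcium channels carry action potentials and the calcium entry that releases catecholamines, while potassium channels end each spike and set the firing rate. In zona glomerulosa cells of the cortex, potassium channels that are open at rest hold the membrane negative, and depolarisation opens calcium channels that drive aldosterone synthesis. Cell type markers of the gland were measured on all arrays: the 9 cortex markers and the 11 chromaffin markers tested all lay above background on at least 1 array, and 0 of either list were called.

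Of the 96 members, 4 were higher in the CGP group at an adjusted p under 0.05 and 0 were lower. These 4 were Cacna2d1, Kcnj2, Kcng3 and Kcnd2. Over all 16034 probe sets tested, 3.53% were called, 1.94% as higher and 1.59% as lower. For higher and lower calls combined, the share of members called was near that of all probe sets. By direction it was less near, at 4 of 96 against 1.94% as higher and 0 of 96 against 1.59% as lower. The differences in shares were not tested. At an unadjusted p under 0.05 there were 16 members (16.7%), 8 higher and 8 lower, against 19.3% of all probe sets, 10.8% higher and 8.52% lower. The groups did not overlap for 22 of the 96 members, with all CGP arrays above the controls for 11 and below for 11. Over all probe sets the groups did not overlap for 26.3%, with the CGP arrays above for 13.7% and below for 12.6%.

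Cacna2d1 encodes α2δ-1, an auxiliary calcium channel subunit that brings pore subunits to the membrane and binds gabapentin. Its log2 values were 10.15, 9.995 and 10.06 on the control arrays and 10.38, 10.58 and 10.50 on the CGP arrays. Every CGP array lay above every control array, and the mean rose from 10.07 ± 0.08 (SD, n = 3) to 10.49 ± 0.10 (SD, n = 3). The log2 fold change was 0.42 (SE 0.07, adjusted p = 0.0158 by limma), or 1.34-fold with a 95% interval of 1.199 to 1.49. A second probe set of Cacna2d1 gave 9.79, 9.65 and 9.75 on the control arrays against 10.02, 10.19 and 10.24 on the CGP arrays. Its groups did not overlap either, and its log2 fold change was also 0.42 (SE 0.07, adjusted p = 0.0180).

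Kcng3 encodes Kv6.3, a subunit that forms no channel of its own and modifies Kv2 channels. Its log2 values were 8.17, 8.10 and 8.26 on the control arrays and 8.52, 8.55 and 8.42 on the CGP arrays. The groups did not overlap, and the mean rose from 8.18 ± 0.08 to 8.50 ± 0.07 (SD, n = 3 each), by 0.32 on the log2 scale (SE 0.06, adjusted p = 0.0295), or 1.25-fold. Kcnd2 encodes Kv4.2, a pore subunit of the fast inactivating A-type potassium current. Its log2 values were 7.57, 7.60 and 7.504 on the control arrays and 7.73, 7.80 and 7.83 on the CGP arrays. The groups did not overlap, and the mean rose from 7.56 ± 0.05 to 7.79 ± 0.05 (SD, n = 3 each), by 0.23 on the log2 scale (SE 0.05, adjusted p = 0.0494), or 1.18-fold.

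Kcnj2 encodes Kir2.1, an inward rectifier that helps to hold the resting potential near that of potassium. Its log2 values were 6.21, 6.03 and 6.13 on the control arrays and 6.40, 6.51 and 6.54 on the CGP arrays. The adjusted p was 0.0246 and the groups did not overlap, but all control values lay under the background of their arrays. Background meant the level that 75% of the 128 probe sets for olfactory, vomeronasal and trace amine receptors did not exceed, array by array, and was 6.49, 6.65 and 6.60 on the control arrays and 6.55, 6.41 and 6.46 on the CGP arrays. Since the CGP mean of Kcnj2, 6.48, was below the mean background of the control arrays, 6.58, no fold is given.

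**Figure D1:**
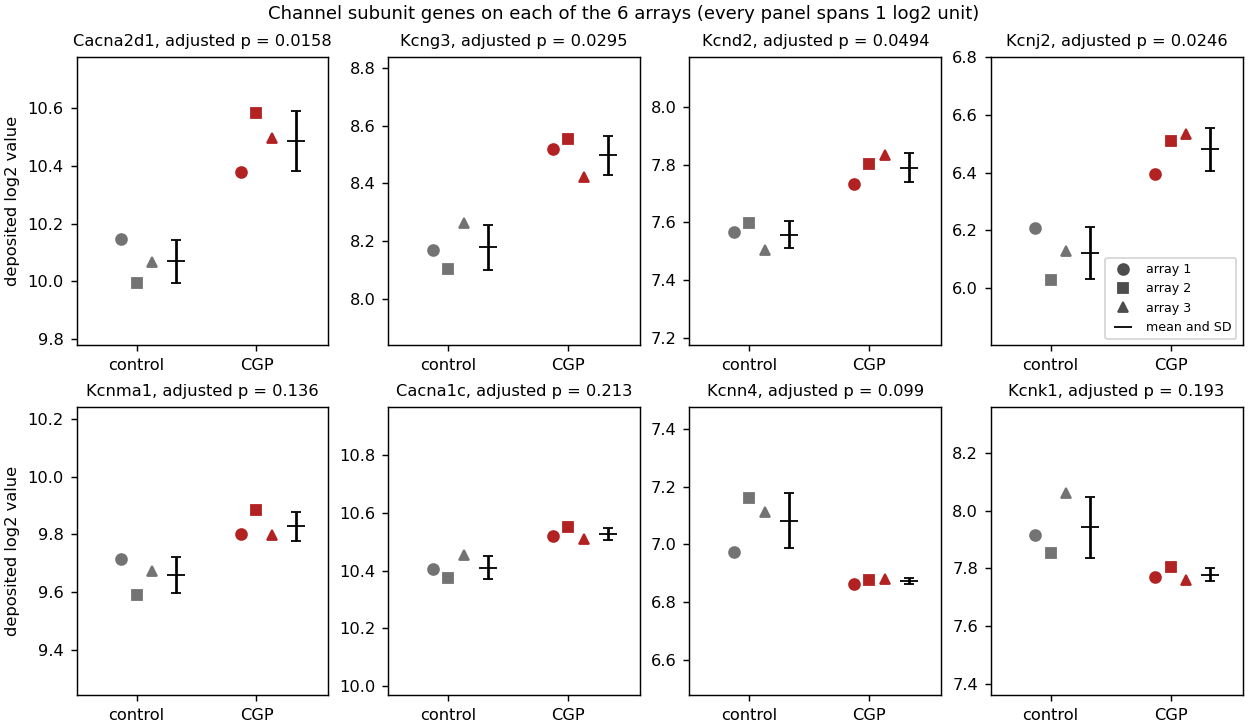
Log2 expression on each control and CGP array (n = 3 each) for the 4 called genes (top) and Kcnma1, Cacna1c, Kcnn4 and Kcnk1, which were not called (bottom), with a point for each array and the mean with SD beside it. The CGP arrays of Cacna2d1, Kcng3 and Kcnd2 lie above all their control arrays, and the control values of Kcnj2, 6.03 to 6.21, lie under the array background.

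All 4 calls were lost when probe sets without a gene symbol were tested as well (adjusted p from 0.0511 to 0.101) and when the test asked for a change beyond 1.2-fold. Leaving out 1 array at a time, Cacna2d1 kept an adjusted p under 0.05 in 3 of 6 fits, Kcnj2 and Kcng3 in 2 of 6 each and Kcnd2 in 0 of 6, with the direction unchanged in all of these fits.

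**Figure D2:**
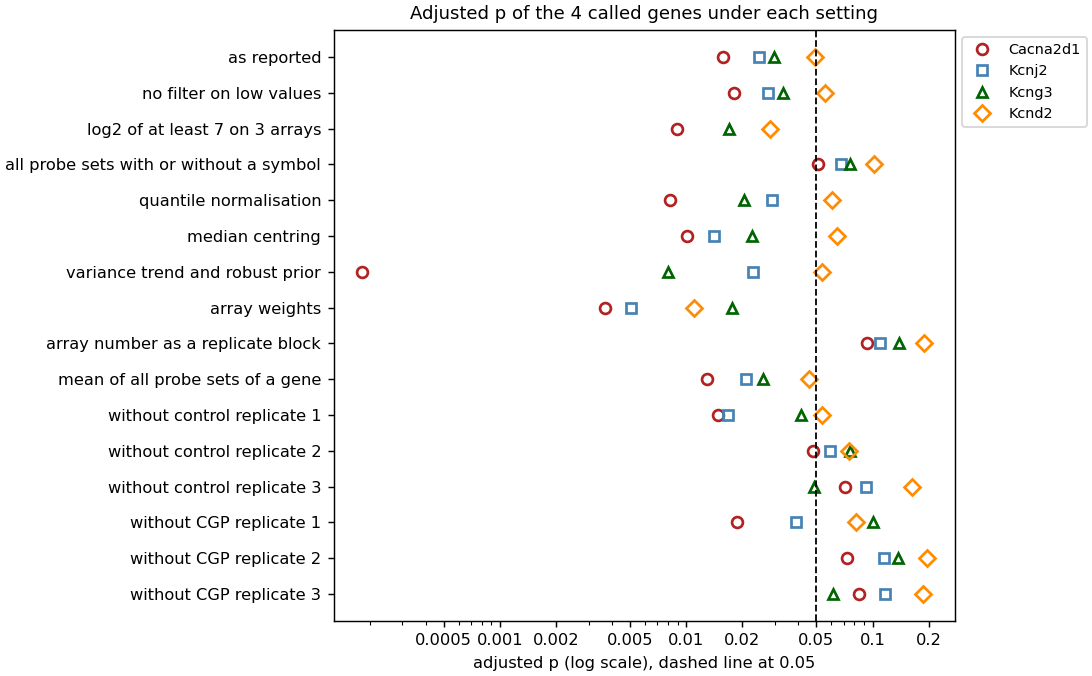
Benjamini-Hochberg adjusted p (log axis) of Cacna2d1, Kcnj2, Kcng3 and Kcnd2 under each setting, with the dashed line at 0.05. Cacna2d1 ranges up to 0.0931, and Kcnd2, at 0.0494 as reported, lies right of the line in every fit that leaves out an array. The test for a change beyond 1.2-fold, where every value was 1, is not drawn.

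The 150 bases before the RefSeq start of each of these 4 genes are printed because these are the members that were called, on the strand of the gene and on GRCm38.p6. Capitals mark GC boxes, searched as GGGCGG and its reverse complement CCGCCC, some of which abut one another or share a base. Boxes that share a base were each counted. The windows lie at chr5:15934541-15934690 (plus strand) for Cacna2d1, chr11:111066014-111066163 (plus) for Kcnj2, chr17:83631896-83632045 (minus) for Kcng3 and chr6:21215196-21215345 (plus) for Kcnd2.
Cacna2d1: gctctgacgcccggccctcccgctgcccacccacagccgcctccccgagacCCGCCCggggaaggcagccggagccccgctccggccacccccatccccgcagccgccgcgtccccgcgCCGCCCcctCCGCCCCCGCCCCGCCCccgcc
Kcnj2: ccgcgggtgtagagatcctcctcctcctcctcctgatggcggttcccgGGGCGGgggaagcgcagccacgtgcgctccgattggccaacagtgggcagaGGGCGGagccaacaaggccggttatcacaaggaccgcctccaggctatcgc
Kcng3: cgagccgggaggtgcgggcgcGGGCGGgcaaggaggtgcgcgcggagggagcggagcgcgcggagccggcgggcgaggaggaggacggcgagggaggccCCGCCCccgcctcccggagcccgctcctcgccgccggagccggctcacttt
Kcnd2: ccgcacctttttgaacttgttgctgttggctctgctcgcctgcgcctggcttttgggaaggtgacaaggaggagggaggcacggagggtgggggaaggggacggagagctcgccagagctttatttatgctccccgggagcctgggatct
The Cacna2d1 window holds 5 GC boxes at 85.3% G and C, those of Kcnj2 and Kcng3 hold 2 each, and that of Kcnd2 holds 0 at 60.7% G and C. Of all 32851 promoter windows of this length, 28.6% hold a GC box, and of the 100 windows that matched 73 of the member genes, 37 do. The median G and C was 54% over all windows and 60% over those of the members, and the difference in GC box shares was not tested. A match is a description of these letters and not of binding.

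Among the 7 calcium channel pore genes, 0 were called and the log2 fold changes ran from -0.12 to 0.12. Cacna1c encodes the pore of an L-type channel of smooth muscle, heart and endocrine cells. Its log2 values were 10.41, 10.37 and 10.45 on the control arrays and 10.52, 10.55 and 10.51 on the CGP arrays. All CGP arrays lay above the controls, with a log2 difference of 0.12 (95% interval 0.01 to 0.22) and an adjusted p of 0.213. Cacna1d, the L-type channel that opens at more negative voltages and drives pacemaking in chromaffin cells, differed by 0.06 (adjusted p = 0.489). For the P/Q-type pore gene Cacna1a the difference was 0.02 (adjusted p = 0.822), and for the N-type gene Cacna1b it was -0.03 (adjusted p = 0.772).

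The 14 auxiliary calcium channel genes included Cacna2d1, and the other 13 were not called. Of the other α2δ genes, Cacna2d4 gave 6.586, 6.82 and 6.83 on the control arrays and 6.585, 6.38 and 6.43 on the CGP arrays. All CGP values lay below the controls, though control 1 and CGP 1 nearly met, with a log2 difference of -0.28 and an adjusted p of 0.119. The values on CGP 2 and CGP 3 were under background. Cacna2d3 differed by 0.17 (adjusted p = 0.134), with 5 of its 6 values under background. Cacng7, a γ subunit gene whose protein also acts on AMPA receptors, was bright at means of 9.49 and 9.53 and differed by 0.04 (adjusted p = 0.724).

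Sodium channel genes were few above the filter, with 3 pore genes and 3 β subunit genes. None of these 6 was called by limma, and none had an unadjusted p under 0.05. The log2 differences of the pore genes ran from -0.03 to 0.11. Scn4b, a β subunit of fast sodium channels, had the most negative difference of these genes, -0.24 (95% interval -0.50 to 0.02, adjusted p = 0.292). It lay under background on 5 of the 6 arrays, and without control 2 its difference was -0.10.

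Of the 25 pore genes of voltage-gated potassium channels, Kcng3 and Kcnd2 were called and the median log2 difference was -0.03, with 11 above 0 and 14 below. The Kcnq genes encode the slow channels that include the M current. Kcnq3 gave 6.67, 6.68 and 6.82 on the control arrays and 7.002, 6.95 and 6.87 on the CGP arrays. Its groups did not overlap, with a difference of 0.22 and an adjusted p of 0.102. Kcnq5 lay under background on all 6 arrays, reached a log2 of 6 on its control arrays only, and differed by -0.23 (adjusted p = 0.155). Kcnq1 differed by -0.03 (adjusted p = 0.810). Kcnh2, the gene of the rapid delayed rectifier of heart, differed by 0.003 (adjusted p = 0.982), and Kcnc4, of a fast delayed rectifier, by -0.05 (adjusted p = 0.601).

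The 9 auxiliary genes of voltage-gated potassium channels held 0 calls. Their median log2 difference was -0.09 and 7 were below 0. All CGP arrays lay below the controls for 4 of them, Kcne1l, Kcnip1, Kcnip3 and Kcnab1. Over all probe sets this held for 12.6%, and 45.6% of the differences were above 0. The differences in shares were not tested. Kcnab1 lay under background on 4 of the 6 arrays. Kcnip3 encodes a calcium-binding partner of Kv4 channels and gave 9.59, 9.473 and 9.62 on the control arrays against 9.41, 9.468 and 9.45 on the CGP arrays. The lowest control array and the highest CGP array nearly met, and the difference was -0.12 (adjusted p = 0.268). Kcne1l lay under background on all 6 arrays, with a difference of -0.17 (adjusted p = 0.144).

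Calcium-activated and sodium-activated potassium channels set the pauses after a spike. By symbol (Kcnma, Kcnmb, Kcnn, Kcnt and Kcnu), 11 genes were grouped under this heading, and 0 were called. They include auxiliary Kcnmb subunits and Kcnu1, and the grouping does not show how each channel is opened. Kcnma1 encodes the large-conductance BK channel of chromaffin cells and smooth muscle. Its log2 values were 9.71, 9.59 and 9.67 on the control arrays and 9.80, 9.88 and 9.80 on the CGP arrays. All CGP arrays lay above the controls, with a difference of 0.17 (95% interval 0.05 to 0.29) and an adjusted p of 0.136. Kcnn4, the intermediate-conductance channel best known from blood cells and epithelia, gave 6.97, 7.16 and 7.11 against 6.86, 6.88 and 6.88. All its CGP arrays lay below the controls, and the difference was -0.21 (95% interval -0.34 to -0.08, adjusted p = 0.0990).

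The Kcnn1, Kcnn2 and Kcnn3 genes encode small-conductance SK channels. Kcnn2 was tightly grouped, at 10.13, 10.11 and 10.13 on the control arrays and 10.19, 10.19 and 10.21 on the CGP arrays. The groups did not overlap, but the difference was 0.07 (95% interval -0.02 to 0.17) with an adjusted p of 0.386. Kcnn1 differed by -0.14 (adjusted p = 0.214) and Kcnn3 by -0.01 (adjusted p = 0.956).

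Among the 9 inward rectifier genes Kcnj2 was called and 8 were not. Kcnj5, whose somatic mutations are known from human aldosterone-producing adenomas, was at 6.00, 6.13 and 6.06 on the control arrays and 6.13, 6.06 and 5.94 on the CGP arrays. All 6 values lay under background, and the difference was -0.02 (adjusted p = 0.904). Kcnj14 had a large spread, 5.94 to 6.72 among controls and 5.76 to 6.42 among CGP arrays, and a difference of -0.25 (adjusted p = 0.597). It lay under background on 5 of the 6 arrays. Kcnj8, a pore subunit of vascular ATP-sensitive channels, differed by -0.03 (adjusted p = 0.770).

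Of the 11 Kcnk members, which encode potassium leak channels open at rest, 0 were called and 10 had a difference below 0, with a median of -0.06. Over all probe sets 45.6% of the differences were above 0. Kcnk3 and Kcnk9, which the rule left out of this count, both had differences above 0. Kcnk1 gave 7.92, 7.85 and 8.06 on the control arrays and 7.77, 7.81 and 7.76 on the CGP arrays. All its CGP arrays lay below the controls, with a difference of -0.16 (adjusted p = 0.193). Kcnk2, a mechanically gated leak channel, differed by -0.14 (95% interval -0.32 to 0.05, adjusted p = 0.385). Kcnk9, which encodes a leak channel of zona glomerulosa cells and was not among the members, rose by 0.39 on the log2 scale (adjusted p = 0.00476), at 10.81, 10.86 and 10.87 on the control arrays and 11.29, 11.24 and 11.17 on the CGP arrays. The related Kcnk3 differed by 0.09 (adjusted p = 0.298) and the T-type calcium channel gene Cacna1h by 0.12 (adjusted p = 0.182).

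**Figure D3:**
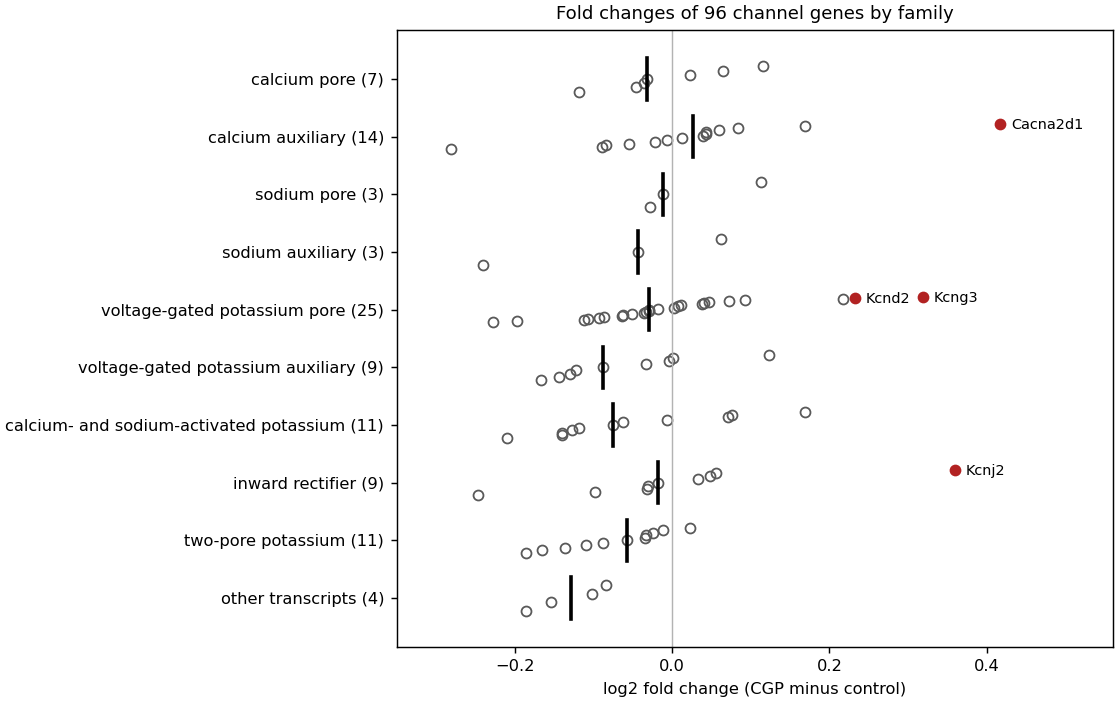
Log2 difference, CGP minus control, of each member gene by channel family, with 1 point per gene and a mark at the family median. Called genes stand right of 0 and have names, and 10 of the 11 two-pore (Kcnk) members lie left of 0. Kcnk3 and Kcnk9, which were not members and are not drawn, had differences above 0. The called inward rectifier is Kcnj2, whose control values lay under background.

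Of the 4 transcripts that are not channel subunits, 0 were called and all had differences below 0. Scnm1 gave 10.43, 10.33 and 10.37 on the control arrays and 10.27, 10.21 and 10.19 on the CGP arrays, a difference of -0.15 (adjusted p = 0.141).

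Over the 96 members the median log2 difference was -0.03, with 34 above 0 and 62 below, against a median of -0.01 over all probe sets, of which 45.6% were above 0. Signal was near background for many members: 57 lay above it on all 6 arrays, 22 fell under it on 1 to 5 arrays and 17 were under it on all 6. Those under it on all 6 arrays had a median of -0.05, with 3 differences above 0 and 14 below and 0 calls. Those above it on all 6 had a median of -0.02, with 24 above 0 and 33 below and 3 calls. Over all genes, the 1268 under background on all 6 arrays also had a median of -0.05, with 28.4% above 0, while of the 12367 above it 46.9% were above 0. The mean background itself was 6.58 on the control arrays and 6.47 on the CGP arrays, and its part in the members' differences was not tested.

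**Figure D4:**
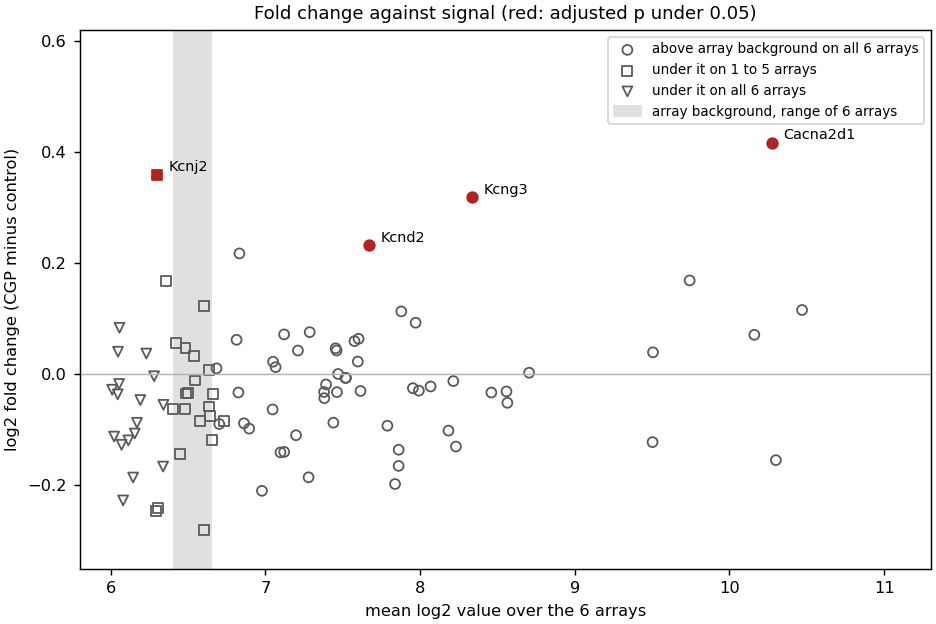
Log2 difference, CGP minus control, of each member gene against its mean log2 value over all 6 arrays, with the background marked. Cacna2d1, Kcng3 and Kcnd2 lie above background, Kcnj2 lies under it, and most members lie within 0.1 of no difference.

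A difference under 0.1 on the log2 scale was found for 62 of the 96 members (64.6%), against 63.8% of all probe sets tested. The standard error of a member's difference had a median of 0.0641 and ran from 0.0413 to 0.232. Several member genes had further probe sets above the filter. Those of Kcna2 differed in sign (0.09 and -0.09, adjusted p = 0.429 and 0.650), the 3 of Scn2a gave -0.01, 0.10 and 0.03, and the pair of Cacng2 gave -0.02 and -0.0046, with 0 called. The dimmer Kcna2 probe set lay under background on 5 of the 6 arrays. The Scn2a probe sets that gave 0.10 and 0.03 lay under it on all 6, and the dimmer one of Cacng2 on 3.

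Other genes of membrane excitability were counted from a list of pumps, exchangers, other cation and chloride channels and channel partners. Of 96 listed genes 67 were tested and 0 were called by limma, against 3.53% of all probe sets. An unadjusted p under 0.05 was found for 13 of the 67, against 19.3% of all probe sets, so these 13 do not set the list apart. The median log2 difference was 0.005. The smallest adjusted p was that of Trpm7, a channel kinase that conducts magnesium, with a difference of 0.36 (adjusted p = 0.0526), and it was followed by the calcium pump gene Atp2a3 at 0.22 (adjusted p = 0.0576).

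Markers of other cells differed between the groups over the same arrays. All 15 hepatocyte markers tested were lower in the CGP group. The log2 of their summed unlogged intensities, to which the brightest markers add most, was 15.2 on each control array and 14.4 to 14.5 on the CGP arrays. Of 10 adipocyte markers 9 were higher, and the same measure went from 14.2 on each control array to 14.8 on each CGP array. Zona glomerulosa markers were higher for 4 of 7, and this measure went from between 14.54 and 14.58 on the control arrays to 14.8 on the CGP arrays. This list includes the channel genes Kcnk9, Kcnk3 and Cacna1h given above, and Kcnk9 is 1 of the 4, so it is not a separate readout from them. Of 3 Schwann and sustentacular markers tested, 1 was called higher and 1 lower by limma. These were Mbp, with a difference of 0.24 (adjusted p = 0.0312), and Erbb3, with -0.32 (adjusted p = 0.0156). Neuron, smooth muscle and endothelial markers held 0 calls of 5, 6 and 7 genes. Skeletal muscle, fibroblast and macrophage markers held 0 calls of 3, 5 and 4. No list had a marker under background on all 6 arrays, and the part of these cell types in the results for the channel genes was not tested.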

How the data were processed

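Adrenal RNA was measured on 6 Affymetrix whole-transcript arrays, 3 per group, grouped by sample title. The authors deposited log2 values for 25150 probe sets, and their processing notes name RMA (background correction, quantile normalisation and probe summary) and Partek. Their versions and the genome build are not given in the sources used. Gene symbols came from the platform annotation. The 16034 probe sets that had 1 symbol and reached a log2 of 6 on 3 or more arrays were fitted by limma (version 3.58.1, under R 4.3.3) with moderated two-sided tests of 3 CGP against 3 control arrays. P-values were adjusted by Benjamini and Hochberg over all 16034, and an adjusted p under 0.05 was called.

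The fit was tested on simulated data. Genes were named by adjusted p, smallest p, brightness, largest change or a set list of adrenal channels. The members and lists were chosen with earlier results of these data known, so neither is independent evidence. Genes were not ranked by level, because probe sets differ in brightness. There is no read depth for arrays, and their number limits precision. In all, 16 alternatives were run, covering filters, normalisation, variance models, a replicate block and leaving out arrays. Promoter windows are from RefSeq (GRCm38.p6).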

Additional observations from a re-analysis of the deposited data

How the results depend on the processing

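The 4 channel calls became 0 when all probe sets were tested with or without a symbol, 0 for a change beyond 1.2-fold and 10 with array weights (5 higher, 5 lower). Leaving out 1 array gave 0 to 7 calls: 7 without control 1 (3 higher, and Cacna2d4, Kcng2, Kcnn4 and Kcnq5 lower), 1 without control 2 (Cacna2d1), 1 without control 3 (Kcng3), 2 without CGP 1 (Cacna2d1 and Kcnj2) and 0 without CGP 2 or CGP 3. Kcng2 was named after its values were seen. Kcnq5 lay under background on all 6 arrays and passed the filter through its control arrays only, so its lower call is not support for a decrease. Apart from the replicate block, the other settings gave 3 to 5 calls. Among these, Kcnd2 lost its call without the filter on low values (adjusted p = 0.0553) and after quantile normalisation (0.0605). It was also lost after median centring (0.0646) and with a variance trend (0.0534). The cause of these shifts was not tested.

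For the other excitability genes, with 0 calls as reported, there were 3 at a log2 filter of 7, 2 after quantile normalisation, 1 after median centring, 3 with a variance trend, 7 with array weights and 0 to 3 without 1 array. Over all probe sets the 566 calls became 1261 with a variance trend, 1665 with array weights, 126 for a change beyond 1.2-fold and 236 to 1099 without 1 array.

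With the array number as a replicate block, channel calls were 0 and calls over all probe sets 224. Same-numbered arrays deviated against each other over all probe sets tested (correlations -0.36, -0.17 and -0.12), so no pairing by number was seen across the whole table. Single genes can differ: Kcnj14 fell with array number in both groups, and the block lowered its adjusted p from 0.597 to 0.146. Adjusted p under the block was 0.0931 for Cacna2d1, 0.110 for Kcnj2, 0.139 for Kcng3 and 0.189 for Kcnd2.

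Signs turned for 7 named genes, none of them called as reported. Kcnh2 was -0.014 after quantile normalisation, -0.0041 after median centring and -0.024 with array weights, Kcnj5 was 0.0011 after quantile normalisation and Kcnj14 was 0.024 with array weights. Without 1 array the differences ran from -0.020 to 0.035 for Kcnh2, -0.060 to 0.033 for Kcnj5, -0.0035 to 0.038 for Cacna1a, -0.073 to 0.0019 for Cacna1b, -0.00021 to 0.078 for Cacng7 and -0.022 to 0.019 for Kcnn3. Signal over background limits the 17 members under background on all 6 arrays and the 22 under it on 1 to 5.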

Other observations

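The member genes span long stretches of the genome, with a median length of 41.1 kb in RefSeq against 20.8 kb over all genes tested. Of the called genes, Kcnd2 is 514 kb long, Cacna2d1 440 kb, Kcng3 58.0 kb and Kcnj2 10.7 kb. Among the 32 members under 20 kb, 6 had a log2 difference above 0 (18.8%), against 30.8% of all genes of that length. The 33 members of 20 to 100 kb had 14 above 0 (42.4%), against 56.7%, and the 31 members over 100 kb had 14 (45.2%), against 64.9%. The medians of the members in these classes were -0.06, -0.02 and -0.01, against -0.04, 0.02 and 0.05 over all genes.

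The filter on low values left out 7 genes of these families, Cacna1s, Kcnb2, Kcnj13, Kcnj9, Kcns1, Kcnt2 and Scn10a. Just inside it were Scn8a (mean log2 of 6.01, with 4 arrays at or above 6) and Kcnc1 (6.02, 3 arrays), and just outside were Cacna1s (6.01, 2 arrays) and Scn10a (5.94, 2 arrays). A probe set that names both Scn3a and Scn1a was not used.

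Over the members, the distance between arrays was 0.152 to 0.182 within the controls, 0.111 to 0.148 within the CGP group and 0.144 to 0.205 between the groups, as the SD over genes of the difference in log2 value between 2 arrays. Over the members the array nearest to control 1 was CGP 2, at 0.144, while over all probe sets it was control 3, at 0.137, against 0.160 for CGP 2.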
